A study of Homo sapiens with 10 samples.

Results

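Terminal peaks of long noncoding RNA (lncRNA) genes were the poly(A) 3′-seq peaks whose summit lay between 200 bp upstream and 600 bp downstream of an annotated transcript end of a lncRNA gene in GENCODE 44, outside every protein-coding gene body and outside the same window of every protein-coding transcript. The rule kept 2972 peaks of the 178837 in the pooled list, or 1.67% of the 178392 peaks on chromosomes 1 to 22, X and Y. In all, 5332 peaks had their summit in a lncRNA end window, of which 2325 lay in a protein-coding gene body and 35 more in a protein-coding end window, and these were left out. The 2972 peaks belonged to 2093 lncRNA genes. This was 11.1% of the 18866 lncRNA genes on these chromosomes (95% Wilson interval 10.7% to 11.6%), and 17.0% (16.3% to 17.6%) of the 12332 genes with at least part of an end window outside protein-coding genes. Wilson intervals cover counting error only here and throughout, since peaks and genes are not replicates.

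The study asked how loss of the transcription kinases CDK12 and CDK13 changes where transcripts are cleaved and polyadenylated. All libraries were made from IMR-32, an established human neuroblastoma cell line with amplified MYCN, transduced with lentiviral pLKO.1 shRNA vectors and selected with puromycin for 2 days. The groups were CDK12 sh22, CDK12 sh98, CDK13 sh701 and CDK13 sh704, which are 2 shRNAs against each kinase, and an shRNA against GFP as control, with 2 libraries each and 10 in all. The cells were selected pools of 1 cell line, and the shRNA against GFP was the only control. The peaks were called once on the merged reads of all 10 libraries, so each peak has 1 value with no replicate, no library depth and no group, and the shCDK12, shCDK13 and shGFP cells could not be compared. As a check of the label, 13 of 13 neuroblastoma marker genes (HAND2, GATA3, CHGA and others) had a terminal peak, with a median summit pileup of 48 for the strongest peak of each gene. Of 10 markers of other cell types 5 had one, with COL1A1 and MBP at 14, EPCAM at 13, GFAP at 12 and ALB at 3. PTPRC, CD3E, KRT5 and PECAM1 were among those with none. The lowest neuroblastoma markers, ISL1 at 16 and DBH at 17, were little higher than COL1A1 and MBP. The share of all protein-coding genes with a terminal peak is not given here.

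lncRNAs are transcribed by RNA polymerase II and, like messenger RNAs, most of them receive their 3′ end when the cleavage and polyadenylation machinery recognises a hexamer such as AATAAA in the nascent RNA, cuts a short distance downstream and adds a poly(A) tail. Some well-known lncRNAs end differently, for example after cleavage by RNase P, and carry no poly(A) tail. The libraries were made with a kit that primes reverse transcription with oligo(dT), so the read starts at the tail, and primer can also anneal to runs of A inside a transcript. The 3′ edge of a peak in the direction of the gene therefore marks the cleavage side, and the sequence on either side of that edge shows whether it has a hexamer upstream or genomic A downstream.

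The first set of sequences shows strong terminal peaks that were picked for a hexamer, so it does not describe strong peaks in general. The strongest peaks of LINC01829, SNHG14 and TAF12-DT had no hexamer and are left out. Each line holds the last 50 bases of the peak side and the first 20 bases beyond the 3′ edge, read in the direction of the lncRNA from GRCh38, for the 8 strongest peaks of named genes (1 per gene) that hold a hexamer in those 50 bases. Capitals mark the hexamer, AATAAA first, then ATTAAA, then the other 10 in the order of the study.
MALAT1, chr11:65499913-65499982, plus strand: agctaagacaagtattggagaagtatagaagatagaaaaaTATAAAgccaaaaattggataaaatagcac
HAND2-AS1, chr4:173539438-173539507, plus strand: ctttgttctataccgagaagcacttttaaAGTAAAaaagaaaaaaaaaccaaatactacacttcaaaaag
SDHAP4, chr3:197612562-197612631, minus strand: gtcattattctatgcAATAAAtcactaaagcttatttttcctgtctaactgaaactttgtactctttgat
RNASEH1-DT, chr2:3561701-3561770, plus strand: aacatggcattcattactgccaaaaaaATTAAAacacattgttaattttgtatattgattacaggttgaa
HERC2P9, chr15:28685227-28685296, plus strand: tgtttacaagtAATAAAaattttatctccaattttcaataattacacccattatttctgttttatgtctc
CD27-AS1, chr12:6439108-6439177, minus strand: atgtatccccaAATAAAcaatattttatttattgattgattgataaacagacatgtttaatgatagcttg
LINC01829, chr2:67175125-67175194, minus strand: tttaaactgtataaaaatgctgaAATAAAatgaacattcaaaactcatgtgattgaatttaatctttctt
MIR4458HG, chr5:8460062-8460131, plus strand: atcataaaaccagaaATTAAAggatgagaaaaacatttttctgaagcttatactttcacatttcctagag

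In this set the capitalised hexamer started 10 bases upstream of the edge in MALAT1 and 39 bases upstream in HERC2P9 and CD27-AS1, and between those bounds in the other genes. The second set shows the other kind of terminal peak, with no hexamer within 100 bases and at least 7 A among the 10 genomic bases after the edge, which are in capitals.
LINC00662, chr19:27774162-27774231, minus strand: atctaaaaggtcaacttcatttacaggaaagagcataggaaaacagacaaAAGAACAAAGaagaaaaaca
MIR99AHG, chr21:16535481-16535550, plus strand: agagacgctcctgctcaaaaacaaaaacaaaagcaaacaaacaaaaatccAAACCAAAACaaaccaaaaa
MEG8, chr14:100998645-100998714, plus strand: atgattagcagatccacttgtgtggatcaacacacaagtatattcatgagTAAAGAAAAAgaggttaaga
SNHG14, chr15:25042241-25042310, plus strand: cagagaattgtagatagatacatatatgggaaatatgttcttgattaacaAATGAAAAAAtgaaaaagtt

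The third set comes from lncRNAs that have a form whose mature 3′ end is known not to be made by cleavage and polyadenylation. MALAT1 and the long form of NEAT1 end after RNase P cleavage, and TERC, the telomerase RNA, is an H/ACA RNA. The lines give the MALAT1 peaks with pileups of 64 and 62 and the only peaks of TERC and NEAT1, with a hexamer in capitals where the 50 bases hold one. The strongest MALAT1 peak is in the first set.
MALAT1, chr11:65502951-65503020, plus strand: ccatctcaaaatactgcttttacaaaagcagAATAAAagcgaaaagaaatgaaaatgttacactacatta
MALAT1, chr11:65500553-65500622, plus strand: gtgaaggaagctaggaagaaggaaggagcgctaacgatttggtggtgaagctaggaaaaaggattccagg
TERC, chr3:169764588-169764657, minus strand: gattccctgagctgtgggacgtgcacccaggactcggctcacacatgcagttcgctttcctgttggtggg
NEAT1, chr11:65426480-65426549, plus strand: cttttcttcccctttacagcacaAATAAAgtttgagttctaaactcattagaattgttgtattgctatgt

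Terminal peaks of lncRNA genes were lower than those of protein-coding genes. Summit pileup is the number of extended reads that cover the summit in the merged libraries, with at most 1 read kept per position and strand. Reads that start at the same position and strand count once, so pileup counts distinct read positions and does not measure RNA abundance. It was recovered from the fold and the p-value that the peak caller wrote. Its median was 10 (95% interval from order statistics 10 to 11) over the 2972 peaks, and the middle of the distribution ran from 7 at the lower quartile to 16 at the upper. The 18758 terminal peaks of protein-coding genes, selected by the mirror image of the rule, had a median of 18 (18 to 18). The 8894 peaks in introns of lncRNA genes had a median of 8 (8 to 8), and all 178392 chromosomal peaks a median of 9 (9 to 9). Of the lncRNA terminal peaks, 298 had a -log10 q-value of 20 or more, or 10.0% (8.998% to 11.2%), where 7.19% of all chromosomal peaks did. The share was 30.7% (30.02% to 31.3%) among protein-coding terminal peaks and 3.35% (2.996% to 3.75%) among lncRNA intronic peaks. Among peaks with a single gene strand, lncRNA and protein-coding terminal peaks differed by -19.6 percentage points (95% Newcombe interval -20.8 to -18.3). End windows of lncRNA genes held 163 peaks per megabase and those of protein-coding genes 552, so lncRNA ends were both less often marked and marked by lower peaks. Whether the lower pileups reflect less RNA was not tested. In bulk poly(A) RNA, fewer cells with a transcript and fewer copies per cell cannot be told apart.

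The terminal peak with the highest pileup lay in MALAT1, a nuclear lncRNA enriched in splicing speckles. It had a pileup of 100 and a fold of 5.69 over a local background of 16.7. By -log10 q-value it was not the highest, with 39.1 against 62.9 in HERC2P9, 62.0 in SDHAP4 and 61.1 in CD27-AS1. MALAT1 held 7 terminal peaks with pileups of 100, 64, 62, 57, 53, 48 and 46. All of them lay between positions 65499056 and 65503796 of chromosome 11, in a gene that runs from 65497640 to 65508073 on the plus strand, so none was at the far end of the gene. Of the 7, 3 had a hexamer within 100 bases and 1 of these held AATAAA 19 bases upstream. An antisense lncRNA gene covers the same sequence, and since the list carries no strand, reads from the antisense gene cannot be told apart.

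MYCNOS, the antisense neighbour of the oncogene MYCN, had a single terminal peak with a pileup of 74, a fold of 8.54 and a -log10 q-value of 41.4, at positions 15939841 to 15940288 of chromosome 2. LINC01829 had peaks of 65, 46, 25 and 18 and was accompanied by 98 intronic peaks in a gene of 274624 bp. HAND2-AS1, a neighbour of the sympathetic lineage factor HAND2 on the other strand, reached 62. SDHAP4 and HERC2P9, which carry symbols of pseudogenes, reached 56 and 51, and RNASEH1-DT, which starts next to RNASEH1, reached 53. SNHG14, the long host of the SNORD115 and SNORD116 snoRNA clusters in the imprinted 15q11 region, reached 50. CD27-AS1, TAF12-DT, MIR4458HG, LINC01797, LINC01798, MAGI2-AS3 and ANKHD1-DT followed with strongest pileups from 49 down to 44. LINC01797 and LINC01798 share the peak of 45, which lies in end windows of both strands. Peaks of genes that GENCODE lists without a symbol, 1272 of the members, went up to 95.

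**Figure D1:**
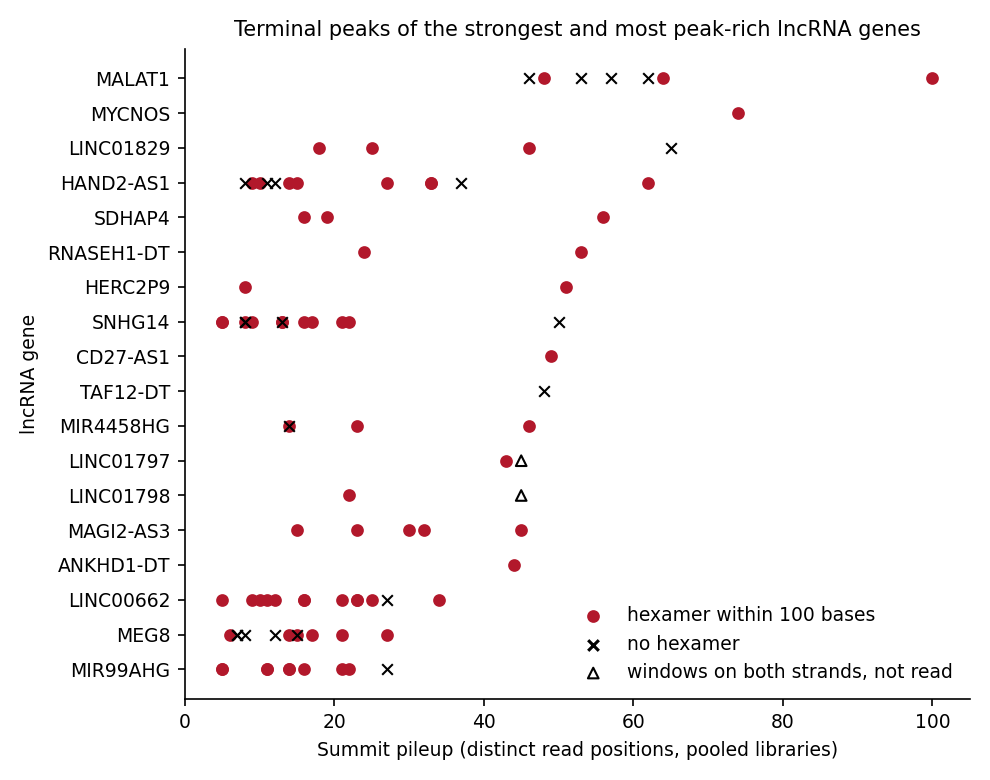
Summit pileup (x axis, distinct read positions in the pooled libraries) of every terminal peak of the 15 named lncRNA genes with the highest pileup and of the genes with the most terminal peaks (y axis). Filled circles have any of 12 hexamers within 100 bases of the 3′ edge, crosses have none, and open triangles lie in end windows of both strands. MALAT1 has 7 peaks between 46 and 100, while most peaks of LINC00662, MEG8 and MIR99AHG lie below 30. Of 5 genes tied at 10 terminal peaks, only MIR99AHG is drawn for its number of peaks.

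Several of these high pileups stood on a high local background, which is the pileup that the peak caller took as the local mean. The median background was 0.56 over lncRNA terminal peaks and 1.01 over protein-coding terminal peaks. A background of 5 or more was found in 21 lncRNA terminal peaks (0.707%) and in 0.458% of protein-coding terminal peaks. At 2 or more the shares were 5.52% and 16.1%, so a raised background was commoner at protein-coding ends. Of the 21 peaks, 7 were the MALAT1 peaks and 7 lay on chromosome 2. On chromosome 2 the background of all peaks had a median of 0.56 over the whole chromosome, 1.58 and 1.55 in the bins that start at 14 and 15 megabases, and 1.60 and 3.16 in the bins at 66 and 67 megabases. MYCNOS, with a background of 7.78, lay in the first of these stretches, and LINC01797, LINC01798, LINC01829 and LINC01828 in the second. LINC01797 had a background of 9.32 under a peak of 43 (fold 4.26). LINC01828, which was named after its values were seen, had 8 terminal peaks there with a background of 2 or more. Their pileups ran from 19 to 25 and their backgrounds from 2.29 to 5.18. Any of its peaks with a background below 2 were not counted. IMR-32 carries amplified segments on the short arm of chromosome 2, and the part of copy number in these values was not tested.

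The hexamers set the members apart from their own opposite strand. Any of the 12 hexamers listed in the study's methods lay within 100 bases upstream of the 3′ edge in 2363 of the 2933 lncRNA terminal peaks whose windows had 1 strand, or 80.6% (79.1% to 82.0%), and in 50.8% (48.99% to 52.6%) when the same peaks were read on the opposite strand. Over both edges of all chromosomal peaks, 48.2% of the 356784 stretches of the same length held a hexamer. The canonical AATAAA was present in 1422 peaks (48.5%) and ATTAAA, its commonest variant, in a further 394 (13.4%) without AATAAA. None of the other 10 hexamers was the best match in more than 96 peaks, which was the count of TATAAA, and 570 peaks (19.4%) had no hexamer. HAND2-AS1, SDHAP4, RNASEH1-DT, HERC2P9, CD27-AS1, MIR4458HG, MAGI2-AS3, ANKHD1-DT and MYCNOS had a hexamer at their strongest peak. LINC01829, SNHG14 and TAF12-DT had none at theirs.

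AATAAA or ATTAAA started 15 to 35 bases upstream of the edge in 50.02% (48.2% to 51.8%) of lncRNA terminal peaks, against 6.44% (5.61% to 7.39%) on the opposite strand and 12.3% over all peak edges. The commonest start was 23 bases upstream, with 5.63 hexamers per 100 peaks at that base, and it was also 23 bases upstream at protein-coding ends. At lncRNA intronic peaks the share was 16.2%, 33.8 points below the terminal peaks (31.8 to 35.8).

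**Figure D2:**
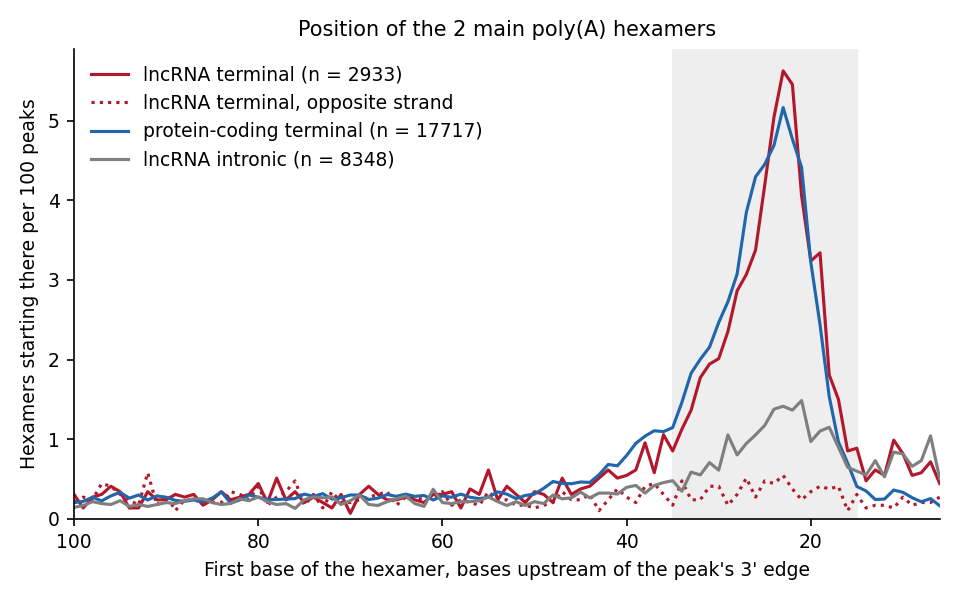
Number of AATAAA and ATTAAA hexamers per 100 peaks (y axis) by the distance of their first base upstream of the 3′ edge of the peak (x axis, bases), for 2933 lncRNA terminal peaks on the gene strand (solid) and the opposite strand (dotted), 17717 protein-coding terminal and 8348 lncRNA intronic peaks; the grey band marks 15 to 35 bases. Both kinds of terminal peak rise to a maximum at 23 bases, of 5.63 hexamers per 100 lncRNA peaks and 5.16 per 100 protein-coding peaks, and the opposite strand shows no such rise.

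Other sequence elements near poly(A) sites were also more frequent on the gene strand. The search was for the exact letters. TGTA, the core of the element bound by cleavage factor Im, started 31 to 100 bases upstream in 37.2% (35.4% to 38.9%) of lncRNA terminal peaks, 26.5% (24.96% to 28.2%) on their opposite strand and 28.1% over all peak edges. TGTGT or GTGTG, which overlap each other and stand for GU-rich elements, lay within 50 bases downstream in 14.2% (13.0% to 15.5%), against 7.77% (6.86% to 8.80%) on the opposite strand and 8.09% over all peak edges. Protein-coding terminal peaks held both more often, with 44.5% for TGTA (difference -7.36 points, 95% Newcombe interval -9.24 to -5.45) and 17.9% for the GU-rich letters (-3.69 points, -5.04 to -2.27). Within classes of summit pileup the interval for TGTA included 0 below 8 (-1.71 points, -5.59 to 2.24) but not in the 3 higher classes, where the difference ran from -3.08 to -9.97 points. That for the GU-rich letters excluded 0 only from 15 to 29 (-5.48 points, -7.97 to -2.62); it was -2.75 (-5.49 to 0.152) below 8, -0.797 (-2.99 to 1.57) from 8 to 14 and -3.15 (-8.40 to 3.87) at 30 and over.

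A downstream run of A, of the kind an oligo(dT) primer can anneal to, was found in fewer lncRNA terminal peaks than a hexamer. The opposite-strand shares were also unlike, at 5.52% and 50.8%, so the raw shares do not rank these features. At least 7 of the 10 bases after the edge were A in 628 lncRNA terminal peaks, or 21.4% (19.96% to 22.9%), in 5.52% (4.75% to 6.41%) on the opposite strand and in 54.7% (53.6% to 55.8%) of lncRNA intronic peaks. Over all peak edges the share was 30.5%, above that of the lncRNA terminal peaks. The difference between terminal and intronic peaks of lncRNA genes was -33.3 points (-35.1 to -31.4). A 25-base stretch in which no more than 3 letters were not A followed within 50 bases in 75 lncRNA terminal peaks (2.56%), and 59 of the members (2.01%) had such a stretch with no hexamer. Over all peak edges such a stretch followed in 3.81%. Taking hexamer and A content together, 2029 peaks (69.2%) had a hexamer and no A-rich sequence, 334 (11.4%) had both, 276 (9.41%) had neither and 294 (10.0%) were A-rich with no hexamer. These classes differed in where they lay: the 3′ edge was within 25 bp of an annotated lncRNA end in 67.6% (65.6% to 69.6%) of the first class, 38.3% (33.3% to 43.6%) of the second, 19.9% (15.6% to 25.04%) of the third and 33.0% (27.9% to 38.6%) of the fourth. MEG8, an imprinted lncRNA of the DLK1-DIO3 region, held 11 terminal peaks, of which 3 with pileups of 12, 8 and 7 had 9, 9 and 10 A in the 10 downstream bases and no hexamer.

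The rule bounds the summit to a window of 800 bp, and within it the 3′ edges gathered at the annotated ends. The edge lay within 10 bp of the nearest annotated end in 45.6% (43.8% to 47.4%) of lncRNA terminal peaks, within 25 bp in 56.3% (54.5% to 58.1%) and within 100 bp in 71.4% (69.7% to 73.0%). A further 802 peaks (27.3%) had their edge over 100 bp past the end and 38 (1.30%) over 100 bp before it. Summits lay in a lncRNA exon in 2362 peaks (79.5%), inside a lncRNA gene outside its exons in 321 (10.8%) and past the gene in 289 (9.72%). In the 100 bp before the end there were 2048 summits, while the other 7 bins of 100 bp inside the window held from 106 to 162 each. Just outside the window, 116 peaks had summits 200 to 300 bp before an end and 86 had summits 600 to 700 bp past one, with median pileups of 11 and 9. Just inside, the corresponding bins held 145 and 111 peaks with medians of 12 and 8.

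Next to protein-coding terminal peaks, lncRNA terminal peaks less often had a hexamer or an edge at an annotated end and were more often A-rich. The share with any hexamer was 84.8% at protein-coding ends (difference -4.26 points, 95% Newcombe interval -5.82 to -2.77), the share with AATAAA or ATTAAA at 15 to 35 bases 53.9% (-3.87 points, -5.82 to -1.92), the A-rich share 13.7% (7.68 points, 6.15 to 9.29) and the share within 25 bp of an end 61.7% (-5.33 points, -7.27 to -3.41). With only the strongest peak of each gene the differences were larger, at -7.76 points (-9.55 to -6.07), -8.21 points (-10.6 to -5.86), 10.5 points (8.83 to 12.3) and -12.2 points (-14.5 to -9.91) in the same order. Because the protein-coding peaks were higher, the same shares were compared within classes of summit pileup. Below a pileup of 8 the hexamer shares were 78.2% of 876 lncRNA peaks and 75.2% of 1628 protein-coding peaks, a difference of 3.01 points with an interval from -0.495 to 6.396. From 8 to 14 the difference was 1.51 points (-1.09 to 3.96). The intervals of both classes include 0 and leave differences of up to 6.396 points possible. Between 15 and 29 the lncRNA share was 83.6% and the protein-coding share 88.8% (-5.27 points, -8.26 to -2.62). In the same class the shares within 25 bp of an end were 58.9% and 66.7% (-7.77 points, -11.6 to -4.05) and the A-rich shares 17.6% and 10.8% (6.80 points, 4.08 to 9.85). At 30 and over, 141 lncRNA peaks had a hexamer share of 85.8% against 90.03% (-4.22 points, -11.0 to 0.72) and lay within 25 bp of an end in 46.8% against 59.2% (-12.4 points, -20.6 to -4.02). Peaks in this last class were wide, with a median of 192 bp for lncRNA and 190 bp for protein-coding genes against 101 bp for both below a pileup of 8. AATAAA or ATTAAA at 15 to 35 bases was found in 32.6% of these lncRNA peaks and 45% of the protein-coding peaks (-12.4 points, -19.8 to -4.09). When the search ran from 15 to 60 bases, a range set after the data were seen, the shares were 53.9% (45.7% to 61.9%) and 63.8% (62.1% to 65.4%). From 15 to 29 the shares at 15 to 35 bases were 50.7% and 59.8% (-9.11 points, -12.9 to -5.27), and in both lower classes the interval included 0.

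lncRNA terminal peaks also differed from protein-coding ends in copied sequence. The last 100 bases of the peak matched another place in the genome with at least 90 identical bases in 634 lncRNA terminal peaks, or 21.6% (20.2% to 23.1%), and in 6.85% of protein-coding terminal peaks, a difference of 14.8 points (13.3 to 16.3). It was present in every class of pileup, from 13.2 points (10.4 to 16.2) below 8 to 16.8 points (10.4 to 24.5) at 30 and over. Counting the peak itself, 400 lncRNA peaks (13.6%) had 2 to 5 places and 234 (7.98%) more than 5. With more than 5 places the hexamer share was 53.8% and the A-rich share 36.8%, where peaks with a single place had 84.4% and 18.2%. The strongest HERC2P9 peak had 3 places by this count, and the reads of such a peak could have come from any of them, since the mapping kept reads with several matches; how they were divided was not tested.

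**Figure D3:**
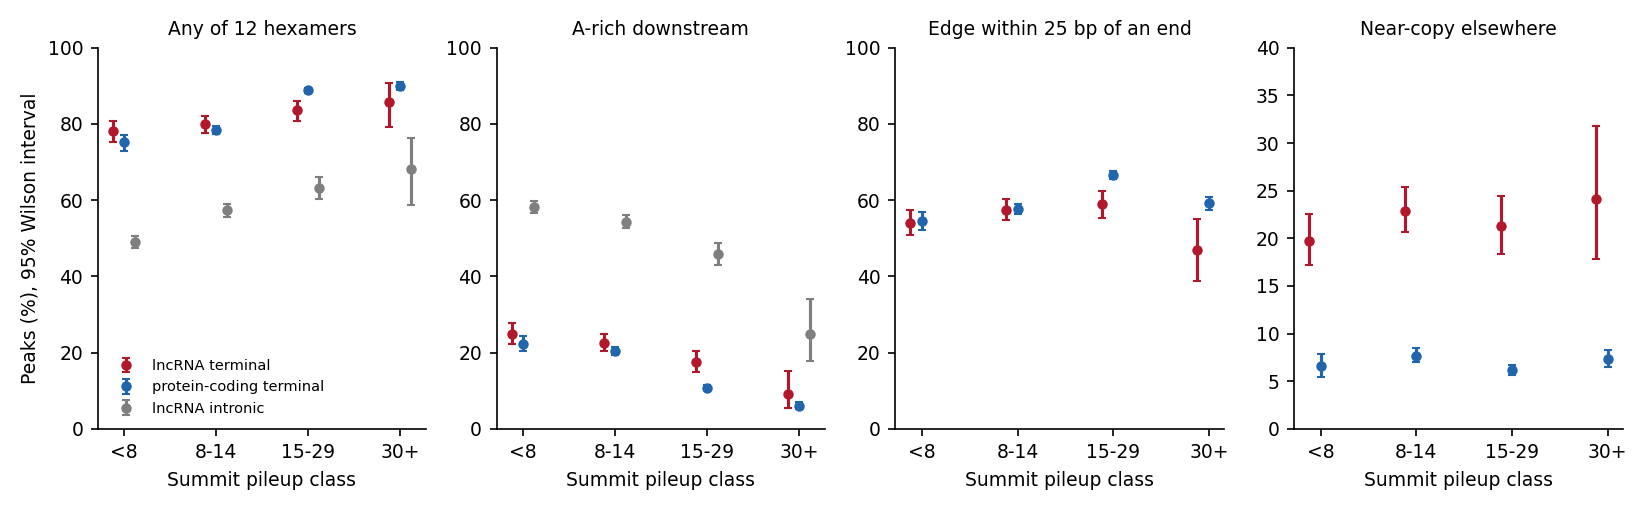
Percent of peaks with any of 12 hexamers, with at least 7 A in 10 downstream bases, with the 3′ edge within 25 bp of an annotated end and with a near-copy elsewhere (4 panels; y axis from 0 to 100, and to 40 in the last), by class of summit pileup (x axis); points are shares and bars 95% Wilson intervals for lncRNA terminal, protein-coding terminal and lncRNA intronic peaks, the last in the first and second panels only. Below a pileup of 15 both kinds of terminal peak overlap in the first 3 panels, while the near-copy share stays at 19.7% to 24.1% for lncRNA and 6.17% to 7.69% for protein-coding genes.

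Most lncRNA genes with a terminal peak had a single one: 1594 had 1, 294 had 2 and 205 had 3 or more. More than 1 was found in 23.8% (22.1% to 25.7%). The most were 14 in SNHG14, 13 in LINC00662, 12 in HAND2-AS1 and 11 in MEG8. MIR99AHG was 1 of 5 genes with 10, among them JPX and FTX. The 12 peaks of HAND2-AS1 had pileups of 62, 37, 33, 33, 27, 15, 14, 12, 11, 10, 9 and 8 and ran from position 173534303 to 173594553 of chromosome 4. The peaks of 15, 14 and 9 each had AATAAA or ATTAAA at 15 to 35 bases and an edge within 1 bp of an annotated end. The peaks of 12 and 8 instead had 10 and 8 A in the 10 downstream bases and no hexamer. LINC00662 spread its 13 peaks, from 34 down to 5, over a gene of 112934 bp, and 12 of them had a hexamer. MIR99AHG, the host of miR-99a, let-7c and miR-125b-2, had 10 terminal peaks from 27 to 5 and 40 intronic peaks in a gene of 718069 bp. SNHG14 had its highest peaks of 50 and 22 next to each other, at 25120184 to 25120757 of chromosome 15, and the other 12 were between 21 and 5.

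Intronic peaks were common in the same genes. Of the 2093 genes with a terminal peak, 842 (40.2%, 38.1% to 42.3%) also had an intronic peak, and the share was higher in longer genes, from 3.62% (2.60% to 5.01%) of genes under 5 kb to 43.5% at 5 to 20 kb, 78.7% at 20 to 50 kb and 91.8% (88.8% to 94.1%) at 50 kb and over. These shares were not adjusted for intron length. The share with more than 1 terminal peak went from 8.83% (7.18% to 10.8%) to 45.3% (40.6% to 50.1%) over the same classes. The share of genes with any terminal peak did not follow length in this way, with 19.3% under 5 kb, 13.6% at 5 to 20 kb, 16.0% at 20 to 50 kb and 17.5% at 50 kb and over.

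The share of genes with a terminal peak differed between kinds of lncRNA gene. Genes whose start lay within 2 kb of a protein-coding start on the other strand had a terminal peak in 34.9% (33.0% to 36.8%) of 2388 cases, and the other 9944 genes in 12.7% (12.03% to 13.3%). Host genes of snoRNAs and miRNAs, by symbol, had one in 46.8% (37.05% to 56.8%), genes with a divergent symbol (-DT) in 42.4% (38.1% to 46.8%), those with pseudogene-like symbols in 72 of 180 cases (33.1% to 47.3%) and those with an antisense symbol (-AS) in 37.4% (34.0% to 41.0%). LINC genes had one in 11.9% (10.6% to 13.3%) and genes with no symbol in 13.5% (12.8% to 14.3%). Whether these classes differ in abundance for other reasons was not tested. Genes with a single-exon canonical transcript had a terminal peak in 32.0% (29.9% to 34.1%) those with 2 or 3 exons in 12.5% (11.8% to 13.3%) and those with 4 or more in 17.4% (16.2% to 18.7%). By position, 1132 of the 2933 peaks (38.6%) belonged to genes divergent from a protein-coding start. Of the remaining peaks, 172 (5.86%) lay less than 10 kb past a protein-coding end on the same strand, 1328 (45.3%) were over 10 kb from any protein-coding gene and 301 lay elsewhere within 10 kb. Counting divergent genes too, 201 members lay less than 10 kb past such an end. The hexamer share was 83.1% (80.8% to 85.2%) in the divergent class, 82.6% (76.2% to 87.5%) past protein-coding ends, 78.8% (76.6% to 81.0%) far from protein-coding genes and 77.4% (72.4% to 81.8%) in the rest, and these classes were not tested against each other. The near-copy share was 31.6% (29.1% to 34.1%) in the peaks of the class far from protein-coding genes and 10.9% (9.18% to 12.8%) in the divergent class.

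Gene lists were described by their counts, beside the 17.0% of all lncRNA genes with an eligible window that had a terminal peak. The lists were not limited to genes with such a window, and the share over all lncRNA genes was 11.1%. Nuclear and scaffold lncRNAs had one in 10 of the 14 listed genes that GENCODE 44 holds as lncRNAs under these names. After MALAT1, the strongest were CRNDE and NORAD, both at 42, and JPX, an activator in X inactivation, and MIAT, both at 26. NORAD, a cytoplasmic RNA that binds PUMILIO proteins, had its only peak at positions 36045625 to 36045807 of chromosome 20, with AATAAA or ATTAAA at 15 to 35 bases and an edge 7 bp before an annotated end; the last 100 bases had 1 near-copy elsewhere, 2 places in all. NEAT1, the backbone of paraspeckles, had a single peak with a pileup of 10 and AATAAA 27 bases before an edge 16 bp past an annotated end. KCNQ1OT1 and OIP5-AS1 had end peaks only inside excluded windows, and HOTAIRM1 and RMST had none.

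In the set of lncRNAs with an unusual 3′ end in at least 1 form, all 3 genes found had a terminal peak. The NEAT1 peak had AATAAA 27 bases before its edge, and the edge lay 16 bp past an annotated end. It was not assigned to a form. TERC had a peak with a pileup of 21, no hexamer within 100 bases and no A in the 10 bases after the edge. Its edge lay 88 bp before the annotated end in GENCODE 44, and the last ACA triplet started 8 bases before it. H/ACA RNAs carry an ACA triplet close to their mature 3′ end.

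Among host genes of snoRNAs, 15 of 30 had a terminal peak (17.0% over all genes with an eligible window), 13 had end peaks only in places excluded by the rule and SNHG9 and SNHG18 had none. The strongest after SNHG14 were GAS5 at 44, in windows of both strands, SNHG1 at 41 and SNHG25 at 40. The strongest SNHG1 peak had AATAAA or ATTAAA at 15 to 35 bases and its edge 3 bp past an annotated end, while its peaks of 22 and 18 had no hexamer. Those 13 genes, among them SNHG5, SNHG7 and SNHG8, had from 1 to 6 end peaks each in protein-coding gene bodies or end windows, so their absence follows from the rule.

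Host genes of miRNAs had a terminal peak in 14 of 19 cases (17.0% over all genes with an eligible window), with the strongest at 35 in MIR124-1HG, which encodes the neuronal miR-124, 29 in MIR100HG, 28 in MIR503HG and 27 in MIR99AHG. MIR155HG, MIR34AHG and MIR325HG had none, although the latter pair had 5 intronic peaks each. Of 18 neighbours of neural and neuroblastoma transcription factors 9 had a terminal peak, beside the same 17.0%: MYCNOS at 74, HAND2-AS1 at 62, CASC15 at 35 and ISL1-DT at 25 were highest, and NBAT1 reached 14. CASC15 had 5 terminal peaks (35, 28, 12, 12 and 11), all with a hexamer. SOX2-OT had 6 intronic peaks without a terminal peak. MYCNUT, GATA3-AS1, LHX1-DT, PANTR1, LINC00461, LINC01551 and RMST were also among the genes with no terminal peak.

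Imprinted lncRNAs had a terminal peak in 6 of the 9 genes found (17.0% over all genes with an eligible window), with SNHG14 at 50, MEG3 at 40, H19 at 30 and MEG8 at 27. MEG3 had 4 terminal peaks, of which the one of 29 had AATAAA or ATTAAA at 15 to 35 bases and its edge 1 bp past an annotated end, whereas the highest, of 40, lay 188 bp past one on a local background of 5.99. The H19 peak had its edge 8 bp past an annotated end and AATAAA within 100 bases. AIRN and MESTIT1 had no end peak. Of the p53 and DNA damage lncRNAs, a class of interest because CDK12 is known for its role in the expression of DNA damage response genes, 6 of 9 had a terminal peak, beside the same 17.0%: NORAD at 42, PURPL at 25, TP53TG1 at 22, DDX11-AS1 at 13, LINC-PINT at 12 and PINCR at 5. PANDAR, MIR34AHG and DINOL had none. The medians of the strongest pileup over the genes of these lists with a peak, from 17.5 for the p53 list to 28.5 for the imprinted list, stood above the median of 11 over all 2093 genes. The lists were chosen with earlier results known and hold well-known lncRNAs, and nothing was tested for them.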

How the data were processed

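Poly(A) 3′-seq libraries of IMR-32 cells (4 shCDK12, 4 shCDK13 and 2 shGFP) were sequenced from the poly(A) side. Per the methods of the study, the authors trimmed reads with bbduk and mapped them to GRCh38 with STAR 2.5.1b. They downsampled the knockdown libraries to the smallest library size, since 2 processing batches differed in sequence quality and depth. The labels do not give the batch of a library. All 10 libraries were merged and peaks were called once with MACS2 2.1.1, with reads extended to 100 bp. The authors also removed peaks with a downstream A stretch and no upstream motif. By the definitions used here, 59 of the members had a 25-base A stretch and no hexamer. Whether the deposited list was written before that removal is not stated in the methods. The deposited list gives for each peak a fold over local background, as (pileup + 1)/(background + 1), and a deposited -log10 p-value and -log10 q-value of the summit. The deposited score is the -log10 q-value times 10, cut to a whole number. Strand and per-library values are absent from it, and library depths are not given in the sources used here, so no group was tested and intervals cover counting error only.

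Summit pileup and background were solved from fold and p-value. Peaks were placed on GENCODE 44, and the strand was that of the lncRNA end windows at the summit; the 39 peaks in windows of both strands entered no sequence share. Hexamers, A content and other letters were read from GRCh38 at the 3′ edge, with the opposite strand and both edges of all peaks as background. Near-copies of the last 100 bases were found with minimap2 2.31-r1302 and counted at 90 or more identical bases. The scripts, tested on simulated data, used pysam 0.24.0 for sequence, pandas 2.3.3 for tables and scipy 1.17.1 for the Poisson tail, under Python 3.11.15. Shares carry 95% Wilson intervals and differences 95% Newcombe intervals.

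Genes were named by rule: the 15 lncRNA genes with a symbol and the highest pileup, the 5 with the most terminal peaks, up to 4 of each gene list and the list members without a terminal peak; other names were added after their values were seen (LINC01828, MIAT, NBAT1, LINC-PINT, PINCR and some divergent pairs). Some list members are not reported here by name. Members and lists were chosen with earlier results of these data known. Alternatives covered the q-value, the window, 1 transcript per gene, the strongest peak per gene, the search windows and thresholds, and classes of pileup.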

Additional observations from a re-analysis of the deposited data

How the results depend on the processing

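No paired analysis was possible because peaks were called on the merged reads of 10 libraries, which also meant that no replicate could be left out and that the depth behind a value is unknown. The comparison with repeats was not run, since the genome used here does not mark them. Directions of the shares against the opposite strand were not tested under the alternatives. With -log10 q of at least 20, 298 peaks in 291 genes were left, with a median pileup of 28, a hexamer in 88.0%, AATAAA or ATTAAA at 15 to 35 bases in 40.4%, A-rich sequence in 10.3%, an intronic peak in 8.59% of genes and more than 1 terminal peak in 5.15%. At 5, the median was 12, the A-rich share 19.7%, the share near an end 59.0%, and the gene shares 37.1% and 21.4%. Given a window of 100 bp on each side of an end, the hexamer, 15 to 35 base, A-rich and near-end shares were 87.0%, 58.1%, 16.4% and 74.0%. They were 83.8%, 54.9%, 15.9% and 60.6% with 1 transcript per gene, which left 1563 peaks, and 82.7%, 52.5%, 17.9% and 59.0% for the strongest peak per gene. Without copied sequences, an alternative chosen after seeing the data, they were 84.4%, 53.8%, 18.2% and 58.9%. The hexamer share was 41.1% upstream of the summit in place of the edge, 73.7% within 50 bp and 61.9% for AATAAA and ATTAAA only. Searching 10 to 40 bases gave 53.4%, and 15 to 60 bases, also chosen after seeing the data, 55.9%. At least 6 or 8 A of 10 gave 27.4% and 15.1%, and the 25-base stretch 2.56%. Within 10 and 50 bp of an end lay 45.6% and 63.4%. In classes of pileup, the differences from protein-coding ends in the hexamer share turned to 3.01 points below 8 and 1.51 from 8 to 14, and in the 15 to 35 base share to 0.517 and 0.0424, all with intervals that include 0. Intervals also included 0 for the hexamer difference at 30 and over (-4.22), the A-rich differences below 8 (2.59), from 8 to 14 (2.18) and at 30 and over (3.13), and the near-end differences below 8 (-0.374) and from 8 to 14 (-0.19). Other settings enlarged the differences from protein-coding ends: the strongest peak per gene gave -7.76 (hexamer), -8.21 (15 to 35 bases), 10.5 (A-rich) and -12.2 points (near an end), -log10 q of at least 20 gave -13.01 (15 to 35 bases) and -11.1 (near an end), and the 15 to 35 base difference was -9.11 from 15 to 29 and -12.4 at 30 and over. The difference from intronic peaks in the 15 to 35 base share was 7.62 points at 30 and over, again with 0 in its interval. The cause of these changes was not tested.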

Other observations

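Divergent lncRNA genes could be set beside the protein-coding gene that starts on the other strand within 2 kb. The sides followed unlike rules. For the partner, every peak in its end windows counted. For the lncRNA, peaks in protein-coding gene bodies or end windows were left out. This favours the partner, and the size of the effect was not tested. Of 1919 lncRNA genes whose partner had a terminal peak, 761 had one themselves, or 39.7% (95% Wilson interval 37.5% to 41.9%). Where the partner had none, 72 of 469 had one, or 15.4% (12.4% to 18.9%), a difference of 24.3 points (95% Newcombe interval 20.2 to 28.0). In the 761 pairs with both peaks the strongest lncRNA peak was lower than that of its partner in 637 (83.7%, 80.9% to 86.2%), equal in 13 and higher in 111 (14.6%, 12.3% to 17.3%). The medians were 11 (10 to 11) for the lncRNA and 25 (24 to 26) for the partner.

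Of 17 named lncRNAs with a peak on both sides, 9 had the higher pileup and 8 the lower. Some of these genes were named for a high pileup, so this split does not describe divergent pairs in general. Over all 761 pairs the lncRNA was higher in 14.6%. RNASEH1-DT had a pileup of 53 where RNASEH1, which removes RNA from RNA-DNA hybrids, had 39. CD27-AS1 had 49 next to TAPBPL at 33, MAGI2-AS3 had 45 next to the scaffold gene MAGI2 at 19, and GAS5 had 44, at a peak in windows of both strands, next to ZBTB37 at 12. ISL1-DT had 25 where ISL1, a factor of sympathetic neurons, had 16. MYCNOS and MYCN had 74 and 73. In the other direction, SNHG1 had 41 next to SLC3A2 at 59, ANKHD1-DT had 44 next to ANKHD1 at 51, SNHG19 had 28 next to TRAF7 at 53, SNHG10 had 22 next to GLRX5 at 53 and DDX11-AS1 had 13 next to DDX11 at 28. Over the 761 pairs the strongest pileups of lncRNA and partner had a Spearman correlation of 0.07. This value is given as a description, since both sides come from the same pooled list. Pileup counts distinct read positions, so these pairs do not compare RNA amounts.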
